A study of Mus musculus with 8 samples.

Results

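The genes described here are 8 transcription factors that mark naive and resting T cells. They are Tcf7, Lef1, Satb1, Bach2, Foxo1, Foxp1, Id3 and Myb. They were picked by name for that role, and each matched 1 gene among the 42748 genes in the deposited count table. All 8 were among the 15063 genes that passed the filter on low counts. RNA came from CD4+ CD25+ cells of pooled spleen and lymph nodes, sorted by the YFP reporter from female Ripk1 fl/fl Foxp3 Cre/wt mice. In these mice a Cre and YFP cassette is inserted into one Foxp3 allele on the X chromosome. Random X inactivation therefore gives YFP+ Treg cells, in which Cre removes Ripk1, beside YFP- Treg cells of the same animal, in which Ripk1 is kept. The labels name the genotypes Ripk1 -/- and Ripk1+/+. The comparison was of 4 YFP+ libraries with 4 YFP- libraries, and each fraction holds libraries numbered 21, 46, 48 and 53. Every YFP+ cell carries the knock-in in its active Foxp3 allele, so the knock-in and the loss of Ripk1 cannot be told apart. The sort used CD25 and YFP and not Foxp3 itself, so the YFP- gate can also hold CD25+ cells that are not Treg cells. Neither the age of the mice nor a separate mouse for each library is stated in the labels or methods. The p-values therefore cover only the spread among these 8 libraries, which may be technical.

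Resting T cells are kept in their state by a small set of factors that hold the genes of recirculation on and the genes of effector function off. Tcf7 (the protein TCF1) and Lef1 are HMG-box proteins of the Wnt pathway that shape T cell identity and oppose effector fates. Satb1 folds chromatin around T cell genes and prepares the Treg program in the thymus, and it is restrained by Foxp3 in mature Treg cells. Bach2 competes with AP-1 at effector genes. Foxo1 and Foxp1 are forkhead factors of quiescence, Id3 blocks the DNA binding of E proteins, and Myb supports the effector differentiation of Treg cells. Resting Treg (rTreg) cells express many of these factors at higher levels than effector Treg (eTreg) cells do. In bulk RNA, fewer cells of a type and less RNA per cell cannot be told apart.

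The libraries held 29719251 to 55371610 counts in the YFP+ fraction and 43737313 to 70782679 counts in the YFP- fraction. YFP+ library 21 stood apart. It was the smallest, and it held 9571 genes with at least 10 counts, while the rest of the YFP+ fraction held 13047 to 15550 such genes and the YFP- fraction 15425 to 16558. Values below are therefore given for all 8 libraries and without this one. Values are CPM, which are counts set against the total of the library after scaling for composition, and a gene was called at a Benjamini-Hochberg adjusted p under 0.05 in edgeR's quasi-likelihood test over all genes. Ripk1 itself was at 15.2 to 28.7 CPM in YFP+ libraries and at 20.5 to 44.3 CPM in YFP- libraries (log2 fold change -0.38 ± 0.39 SE, edgeR adjusted p = 0.713). A count over the whole gene does not separate transcripts that lost the floxed part from intact ones. The CD25 gene Il2ra was at 926 to 1280 CPM in YFP+ libraries and at 1145 to 1308 CPM in YFP- libraries. Foxp3 was listed at 0 in all 8 libraries, and none of its exon bases lies outside the spans of other annotated genes.

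None of the 8 factors was called over all 8 libraries, where 0.0332% of the genes tested were called higher and 0.836% were called lower. The fitted fold change was positive for 7 of the 8. Their median log2 fold change was 0.46, beside a median of -0.02 over all genes tested. Lef1 and Satb1 were the factors with an unadjusted p under 0.05. They were also the 2 whose YFP+ libraries all lay above every YFP- library, a pattern that 7.83% of all genes tested showed in this direction and 10.6% in the opposite direction. Without YFP+ library 21 the median of the 8 was 0.17 and Lef1 was called, where 2.68% of genes were called higher and 3.97% lower. DESeq2 on all 8 libraries called Satb1, where 3.01% of genes were called higher and 4.43% lower. These shares are the background against which the counts of 1 factor called and 2 factors not overlapping stand.

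**Figure D1:**
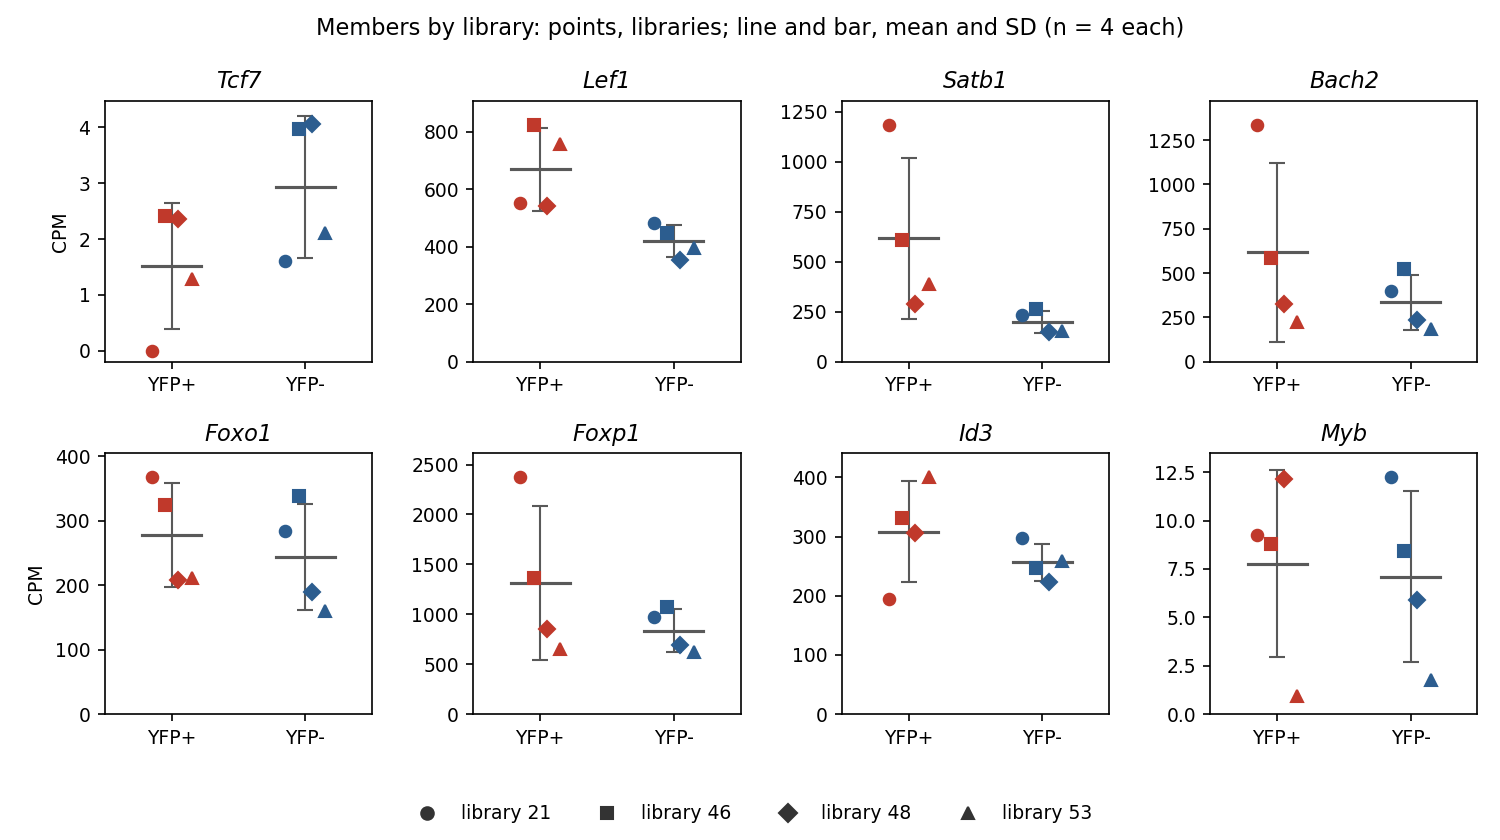
CPM of each of the 8 factors (vertical axis, linear, one scale per panel) in the YFP+ and YFP- libraries, with a marker shape for each library number and the mean with its SD (n = 4 each) as a line and bar. The YFP+ points of Lef1 and Satb1 lie above all YFP- points, YFP+ library 21 is the highest point for Satb1, Bach2, Foxo1 and Foxp1 and the lowest for Tcf7 and Id3, and library 53 is the lowest point of each fraction for Myb.

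Lef1, which lies on chromosome 3 at 131110471 to 131224356 (GRCm38, plus strand), was at 550, 825, 542 and 759 CPM in YFP+ libraries 21, 46, 48 and 53. It was at 481, 446, 354 and 394 CPM in the YFP- libraries of the same numbers. The lowest YFP+ library thus lay above the highest YFP- library, and library 21 was not the one that set the difference. The means were 669 ± 144 CPM in YFP+ libraries and 419 ± 56.0 CPM in YFP- libraries (SD, n = 4 each). This gave a log2 fold change of 0.68 ± 0.20 SE (edgeR adjusted p = 0.229). An exact two-sided permutation test of log2(CPM + 1) gave p = 0.0286, the smallest that 4 libraries against 4 can give. Without YFP+ library 21 the log2 fold change was 0.75 ± 0.17 and passed the threshold at an edgeR adjusted p of 0.0485. Without YFP+ libraries 21 and 48 it was 0.91 with an adjusted p of 0.0277, where 1.43% of genes were called higher. Those libraries held the lowest YFP+ values of Lef1, so a higher YFP+ mean follows from leaving them out. No other factor was called in that fit.

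Satb1, on chromosome 17 at 51736187 to 51833290 (minus strand), had the largest fitted difference of the 8. It was at 1186, 607, 287 and 390 CPM in YFP+ libraries 21, 46, 48 and 53, and at 233, 262, 150 and 154 CPM in the YFP- libraries. The groups did not overlap, although the margin was narrow between YFP+ library 48 at 287 CPM and YFP- library 46 at 262 CPM. The YFP+ libraries spread over a 4.13-fold range and the YFP- libraries over a 1.74-fold range. Its log2 fold change was 1.63 ± 0.46 SE (edgeR adjusted p = 0.199, exact permutation p = 0.0286). DESeq2 gave 1.60 with an adjusted p of 0.0279. YFP+ library 21 carried part of the size. Without it the edgeR value was 1.09 ± 0.31 with an adjusted p of 0.0817.

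The promoters of Lef1 and Satb1 are shown because these are the 2 factors whose libraries separated by fraction. All 8 factors matched the RefSeq table of promoters (GRCm38.p6), which gave 18 windows for them, each running from 250 bases before to 50 bases after an annotated start site. The windows were searched on both strands for the letters CTTTGNT (TCF/LEF family), TGTTTNC (forkhead family) and TGANTCA (Bach and AP-1 proteins). The first set of letters was found in 5 of the 18 windows, the second in 6 and the third in 0. Among all 32851 windows of the table, 18.6%, 20.5% and 7.81% held them, in that order of motifs. Windows of one gene can overlap, and a match is a description of the letters and not a bound site. The first window of Lef1 with a match lies at chr3:131110047-131110346 (plus strand) and has a forkhead match that begins 213 bases before the start site. The first window of Satb1 with a match lies at chr17:51812135-51812434 (minus strand), the fourth of 5 annotated starts, and has a TCF/LEF match that begins 18 bases before the start site. Capitals mark the matches, and both sequences are written 5′ to 3′ on the strand of the gene.
Lef1: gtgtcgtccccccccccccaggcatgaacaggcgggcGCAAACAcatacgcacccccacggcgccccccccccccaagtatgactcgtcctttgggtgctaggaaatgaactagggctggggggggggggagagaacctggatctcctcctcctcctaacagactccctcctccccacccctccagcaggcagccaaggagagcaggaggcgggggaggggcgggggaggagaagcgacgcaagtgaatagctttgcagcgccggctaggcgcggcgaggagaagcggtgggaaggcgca
Satb1: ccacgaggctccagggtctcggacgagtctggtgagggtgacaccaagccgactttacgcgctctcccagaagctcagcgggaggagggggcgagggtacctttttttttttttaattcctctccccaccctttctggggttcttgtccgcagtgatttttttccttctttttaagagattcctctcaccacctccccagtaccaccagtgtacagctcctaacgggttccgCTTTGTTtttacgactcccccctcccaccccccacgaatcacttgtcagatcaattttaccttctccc
The Lef1 window holds 18 CpG sites at 67.3% G and C, and the Satb1 window holds 13 CpG sites at 53.3% G and C. The median over all windows was 7 CpG sites and 52.7% G and C.

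Bach2, Foxp1 and Foxo1 shared a profile in which libraries differed within each fraction and the fractions overlapped. At equal library numbers the YFP+ value was the higher in 4 of 4 for Bach2 and Foxp1 and in 3 of 4 for Foxo1. Whether equal numbers pair the fractions is not stated. Bach2, on chromosome 4 at 32238804 to 32586108 (plus strand), was at 1338, 584, 327 and 222 CPM in YFP+ libraries 21, 46, 48 and 53, against 399, 522, 237 and 182 CPM in the YFP- libraries. One YFP+ library stood far above the rest, and the other libraries of the fractions overlapped. The log2 fold change of Bach2 was 0.88 ± 0.59 SE (edgeR adjusted p = 0.549, 95% interval -0.56 to 2.33), and without YFP+ library 21 it was 0.16 ± 0.45 (adjusted p = 0.863). Foxp1, on chromosome 6 at 98925338 to 99522721 (minus strand), was at 2377, 1359, 855 and 649 CPM in YFP+ libraries, against 968, 1068, 692 and 618 CPM in YFP- libraries. Foxp1 again peaked in YFP+ library 21, and the gene Gm20696 on the same strand covers 10.1% of its exon bases. Its log2 fold change was 0.65 ± 0.41 SE (edgeR adjusted p = 0.529, 95% interval -0.35 to 1.65), and 0.18 ± 0.30 without that library (adjusted p = 0.754). Foxo1, which keeps Ccr7, S1pr1 and Il7r expressed in resting T cells, lies on chromosome 3 at 52268336 to 52353221 (plus strand). It was at 368, 324, 208 and 211 CPM in YFP+ libraries and at 285, 338, 190 and 160 CPM in YFP- libraries. In both fractions libraries 21 and 46 were high and libraries 48 and 53 were low. Its log2 fold change was 0.19 ± 0.31 SE (edgeR adjusted p = 0.838), and the 95% interval of -0.57 to 0.95 holds a change of either sign. Without YFP+ library 21 the value was 0.015 ± 0.30.

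**Figure D2:**
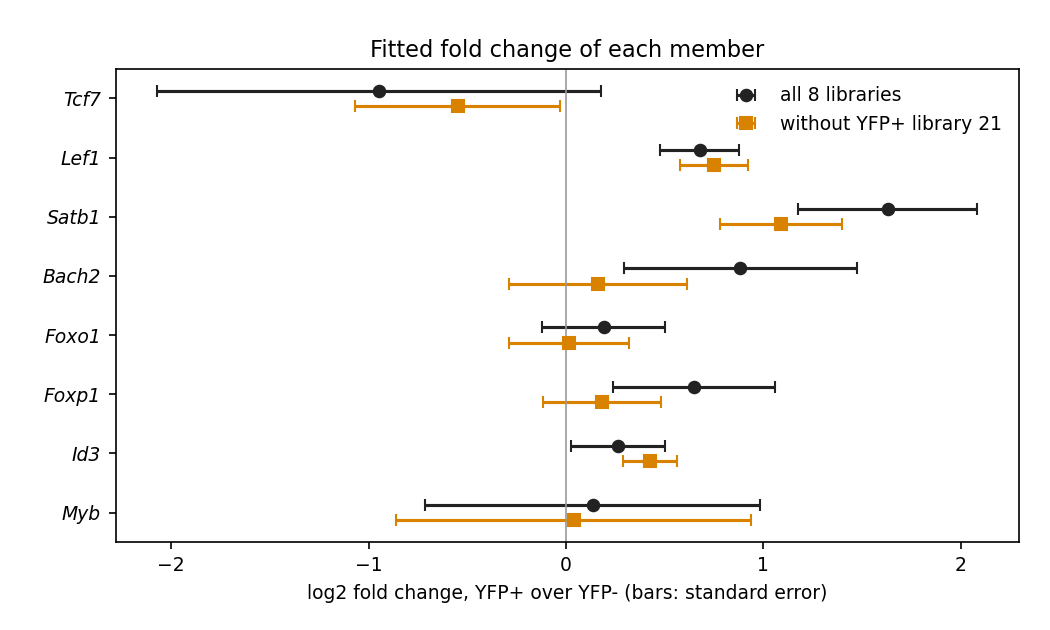
Fitted log2 fold change of YFP+ over YFP- (horizontal axis) with its standard error for each of the 8 factors, over all 8 libraries (black circles) and without YFP+ library 21 (orange squares). Lef1 stays near 0.7 in both fits, Satb1 is at 1.63 and 1.09, and Bach2 and Foxp1 are at 0.88 and 0.65 in the first fit and at 0.16 and 0.18 in the second.

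The length of the gene moved with these profiles. For genes with a mean of at least 5 CPM, log2(CPM + 1) was centred on the gene's own mean over the 8 libraries, and the median was taken by the length of genome from the first to the last exon. In YFP+ library 21 this median was 0.23 for 1080 genes of up to 3 kb, -1.21 for 1628 genes of 3 to 10 kb and -1.29 for 3153 genes of 10 to 30 kb. It was 0.65 for 232 genes of over 300 kb. Short and very long genes were thus high and genes of middle length low in this library. No other library had a median outside -0.38 to 0.35 in any of the 6 length classes. Bach2 spans 347 kb and Foxp1 spans 597 kb, and in YFP+ library 21 they lay 1.78 and 1.29 above their own means on the log2 scale. The median log2 fold change of all genes over 300 kb was 0.31 over all 8 libraries and -0.0052 without YFP+ library 21. Satb1 spans 97.1 kb, a class (30 to 100 kb) whose median in that library was -0.39, whereas Satb1 lay 1.88 above its mean there. Lef1 spans 114 kb, and it lay 0.07 above its mean in a class (100 to 300 kb) with a median of 0.24. The part of gene length in the fold changes was not tested.

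Id3 had the opposite profile in YFP+ library 21. This inhibitor of E proteins is a short gene of 2.26 kb on chromosome 4 at 136143497 to 136145755 (plus strand). It was at 195, 332, 305 and 401 CPM in YFP+ libraries 21, 46, 48 and 53, and at 297, 247, 223 and 259 CPM in YFP- libraries. YFP+ library 21 was the lowest of all 8, and the remaining YFP+ libraries were above every YFP- library. The share of all genes with that pattern is not given here. Over all 8 libraries its log2 fold change was 0.26 ± 0.24 SE (edgeR adjusted p = 0.672, exact permutation p = 0.343). Without YFP+ library 21 it was 0.42 ± 0.14 with an adjusted p of 0.111, so the call did not change. Id3 belongs to the class of 1080 genes of up to 3 kb. Over all 8 libraries the median log2 fold change of that class was 0.47, and 78.6% of its genes were positive. The class median without YFP+ library 21 was 0.41.

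The counts of Tcf7 and Myb were low, and other annotated genes overlap the exons of both. Tcf7, on chromosome 11 at 52252371 to 52283014 (minus strand), had 0, 108, 123 and 56 counts in YFP+ libraries 21, 46, 48 and 53, and 121, 318, 197 and 152 counts in YFP- libraries. In CPM this was 0, 2.40, 2.37 and 1.28 in YFP+ libraries, against 1.60, 3.97, 4.07 and 2.10 in YFP- libraries. The count of 0 allows up to 0.142 CPM at the depth of that library (3 counts, counting error only). No exon base of Tcf7 lies outside the span of another gene. The lincRNA gene Gm26551 on the same strand covers 88.7% of its exon bases and the antisense gene A630014C17Rik covers 11.3%, although neither has an exon on them. Of the 666 coding genes in this position, 89.3% were at 0 in all 8 libraries, against 17.1% of the 13833 coding genes with no other gene over their exons. The low count of Tcf7 was therefore not read as a low expression of TCF1. Its log2 fold change was -0.95 ± 1.13 SE (edgeR adjusted p = 0.76), with a 95% interval of -3.70 to 1.80.

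Myb, on chromosome 10 at 21124935 to 21160984 (minus strand), has 50.05% of its exon bases under the antisense gene Gm26577. It was at 9.24, 8.79, 12.2 and 0.917 CPM in YFP+ libraries 21, 46, 48 and 53, and at 12.3, 8.44, 5.89 and 1.74 CPM in YFP- libraries. Library 53 was the lowest in each fraction, and the fractions overlapped over their whole range. The range was 13.3-fold among YFP+ libraries and 7.04-fold among YFP- libraries. For Myb the log2 fold change was 0.14 ± 0.85 SE (edgeR adjusted p = 0.961, exact permutation p = 0.943). Its 95% interval of -1.94 to 2.21 is wide, so neither a rise nor a fall of several fold could be told from no change, and the sign turned when YFP+ library 48 or YFP- library 53 was left out.

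Levels were compared between the factors only per kb of exon. In YFP+ libraries Id3 was highest at 172 ± 47.9 CPM per kb, followed by Foxp1 at 95.3 ± 56.1, Lef1 at 76.1 ± 16.4, Bach2 at 62.1 ± 50.7, Satb1 at 32.5 ± 21.1 and Foxo1 at 32.0 ± 9.36 CPM per kb (SD, n = 4). Neighbours from Foxp1 down to Foxo1 differed by less than the larger of their SDs. In YFP- libraries the order was Id3 at 143 ± 17.3, Foxp1 at 60.8 ± 15.7, Lef1 at 47.6 ± 6.37, Bach2 at 33.7 ± 15.6, Foxo1 at 28.1 ± 9.54 and Satb1 at 10.5 ± 2.96 CPM per kb. Here Satb1 lay below Foxo1 by more than the larger SD, while Foxp1, Lef1, Bach2 and Foxo1 again differed from their neighbours by less than it. Exon bases were those of all annotated transcripts together, 19027 for Satb1 and 8665 for Foxo1, so the order depends on the annotation. Before division by length, the means in YFP- libraries were 200 CPM for Satb1 and 243 CPM for Foxo1. Myb and Tcf7 were at 0.871 and 0.577 CPM per kb in YFP+ libraries and at 0.793 and 1.12 CPM per kb in YFP- libraries, and both carry the overlaps described above.

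The likeness of 2 genes was measured as the root mean square (RMS) difference of their centred log2(CPM + 1) over the 8 libraries. This difference is not scaled, so genes that vary little lie close to each other whatever their profiles. Among the 8 factors the closest pair was Bach2 and Foxp1 at 0.28, followed by Lef1 and Id3 at 0.30 and by Foxo1 and Foxp1 at 0.32. The RMS of the gene's own centred values was only 0.31 for Id3 and 0.40 for Lef1. In YFP+ library 21 the centred value was 0.07 for Lef1 and -0.50 for Id3. The most distant pair was Tcf7 and Satb1 at 1.54. Among all genes with a mean of at least 5 CPM, Lef1 was closest to Mad2l1bp at 0.093 and Ndrg3 at 0.16. Satb1, whose own centred values had an RMS of 0.94, was closest to 1700025G04Rik at 0.32 and Gm26853 at 0.32. Bach2 was closest to Ppp3ca, the catalytic subunit of calcineurin, at 0.13 and to AW554918 at 0.13. Foxp1 was closest to Lcorl at 0.11 and Arhgef18 at 0.13, Foxo1 to Ankrd44 at 0.13 and Scaper at 0.14, and Id3 to Gm9762 at 0.10 and Mlf2 at 0.11. Myb was closest to Mob3b at 0.44 and Psme4 at 0.45, and Tcf7 to Ttc7 at 0.18 and Pspc1 at 0.22. The points are the same 8 libraries for every gene, with the same depth and the same deviation of YFP+ library 21.

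The genes of quiescence and homing are those that keep T cells small, undivided and recirculating. The list held 23 of them, of which 22 were tested. Over all 8 libraries 0 were called, 17 had a positive fold change and the median log2 fold change was 0.36. At an unadjusted p under 0.05 there were 5 genes by edgeR and 4 by DESeq2, which also called 0. Of all genes tested, 12.6% by edgeR and 19.3% by DESeq2 had such a p, and the DESeq2 share of the list, 4 of 22, was near that background. Without YFP+ library 21 the median was 0.55, 6 genes were called higher and 2 were called lower, where 2.68% of all genes were called higher and 3.97% lower.

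Ccr7, the chemokine receptor for entry into T cell zones, was at 365, 748, 822 and 1043 CPM in YFP+ libraries 21, 46, 48 and 53, against 436, 338, 349 and 531 CPM in YFP- libraries. YFP+ library 21 alone lay within the YFP- range. The log2 fold change of Ccr7 was 0.85 ± 0.32 SE over all 8 libraries (edgeR adjusted p = 0.347) and 1.07 ± 0.19 without that library (adjusted p = 0.0264). S1pr1, the receptor for exit from lymph nodes, had 1.03 (adjusted p = 0.0259). The antiproliferative gene Btg1 had 0.65 (adjusted p = 0.0259), and it was at 6555 CPM in YFP+ library 21, while YFP+ libraries 46, 48 and 53 held 737 to 914 CPM. Actn1 had 0.70 (adjusted p = 0.034) and Slfn2 had 0.70 (adjusted p = 0.0457), with 13.9% of the exon bases of Slfn2 free of other genes. The genes called lower were Il7r, the receptor chain for IL-7, at -1.38 (adjusted p = 0.0219) and Cdkn1b, the cell cycle inhibitor p27, at -0.84 (adjusted p = 0.0285). Both are counted among the genes that Foxo1 induces in T cells, as are Ccr7 and S1pr1. The genes of the list therefore did not move in one direction, and Il7r was at 274 CPM in YFP+ library 21 but at 65.8 to 116 CPM in the other YFP+ libraries, against 190 to 280 CPM in YFP- libraries.

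Among transcription factors of effector T and Treg cells, 12 of 12 were tested, 9 had a negative fold change and the median log2 fold change was -0.69. Over all 8 libraries edgeR called 0 of them, with 3 at an unadjusted p under 0.05, a p that 12.6% of all genes tested had. DESeq2 called Batf and Nfil3 lower, where 4.43% of all genes were called lower. Batf, an AP-1 factor of effector differentiation that acts at sites Bach2 also binds, was at 66.0, 92.7, 72.9 and 90.8 CPM in YFP+ libraries, against 134, 155, 178 and 140 CPM in YFP- libraries. The fractions did not overlap, and YFP+ library 21 was not far from the other YFP+ libraries. The log2 fold change of Batf was -0.91 ± 0.20 SE (edgeR adjusted p = 0.114), and -0.84 ± 0.15 without YFP+ library 21 (adjusted p = 0.0255). Batf was the 1 factor of the 12 called in that fit, where 3.97% of all genes were called lower. Maf and Nfil3, chosen here after their values were seen, also did not overlap between the fractions. With Batf they were the 3 of the 12 whose YFP+ libraries were all below the YFP- libraries. Of all genes tested, 10.6% had that pattern. Maf was at 0.190, 8.93, 10.6 and 0 CPM in YFP+ libraries, against 79.0, 100.2, 93.5 and 64.1 CPM in YFP- libraries (log2 fold change -4.09 ± 1.59 SE, edgeR adjusted p = 0.354). Nfil3 was at 0 to 0.308 CPM in YFP+ libraries and at 4.11 to 9.38 CPM in YFP- libraries (edgeR adjusted p = 0.151). The 3 factors with a positive fold change were Zeb2, Pparg (1.34) and Irf4 (0.26). Zeb2 had the highest log2 fold change of the list, at 2.44 ± 1.39 SE (edgeR adjusted p = 0.487). It was at 1.42, 29.5, 65.3 and 0.206 CPM in YFP+ libraries 21, 46, 48 and 53, against 3.47 to 5.91 CPM in YFP- libraries.

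Of 14 family relatives of the 8 factors, 11 were tested, 0 were called by edgeR with 2 at an unadjusted p under 0.05, and the median log2 fold change was -0.36. Such a p was found for 12.6% of all genes tested. Tcf7l2, a TCF/LEF relative of Tcf7 and Lef1, was at 34.3, 23.7, 18.8 and 14.7 CPM in YFP+ libraries, against 6.58, 6.40, 0.579 and 5.07 CPM in YFP- libraries. Its YFP+ libraries were all above its YFP- libraries, with a log2 fold change of 2.29 ± 0.74 SE (edgeR adjusted p = 0.279). DESeq2 called it higher, as it did 3.01% of all genes. Tcf7l1 likewise did not overlap, at 9.56 to 19.7 CPM in YFP+ libraries and 3.61 to 8.36 CPM in YFP- libraries (log2 fold change 1.12 ± 0.49 SE, adjusted p = 0.396). Foxo4, a relative of Foxo1, did not overlap in the opposite direction. It was at 0, 2.05, 1.35 and 0.894 CPM in YFP+ libraries, against 7.83, 4.11, 5.33 and 3.84 CPM in YFP- libraries (log2 fold change -2.29 ± 1.11 SE, edgeR adjusted p = 0.434). Of all genes tested, 7.83% did not overlap with the YFP+ libraries above and 10.6% with the YFP+ libraries below. Mybl1 had the next lowest fold change at -2.24 ± 1.04 (adjusted p = 0.42), and its fractions overlapped. Of 12 partners (E proteins, small Maf proteins, beta-catenin and Groucho corepressors), 11 were tested. None was called by edgeR or DESeq2 over all 8 libraries, with 0 by edgeR and 2 by DESeq2 at an unadjusted p under 0.05, and the median log2 fold change was -0.03. The share of all genes tested at such a p was 12.6% by edgeR and 19.3% by DESeq2. Without YFP+ library 21, Mafg, which pairs with Bach2 at DNA, was called lower at -2.11 ± 0.41 (adjusted p = 0.0337). In that fit 3.97% of all genes tested were called lower. Mafg was at 0, 6.26, 4.02 and 1.97 CPM in YFP+ libraries and at 17.5, 17.2, 18.7 and 16.99 CPM in YFP- libraries. The corepressor gene Tle3, named after its values were seen, was the other partner whose YFP+ libraries were all below its YFP- libraries (log2 fold change -0.58, edgeR adjusted p = 0.853). That makes 2 of the 11 tested partners, beside 10.6% of all genes tested. Tle3 was at 0.237, 37.8, 36.9 and 40.3 CPM in YFP+ libraries 21, 46, 48 and 53, and at 40.9 to 46.2 CPM in YFP- libraries. Without YFP+ library 21 its log2 fold change was -0.17 (edgeR adjusted p = 0.408).

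**Figure D3:**
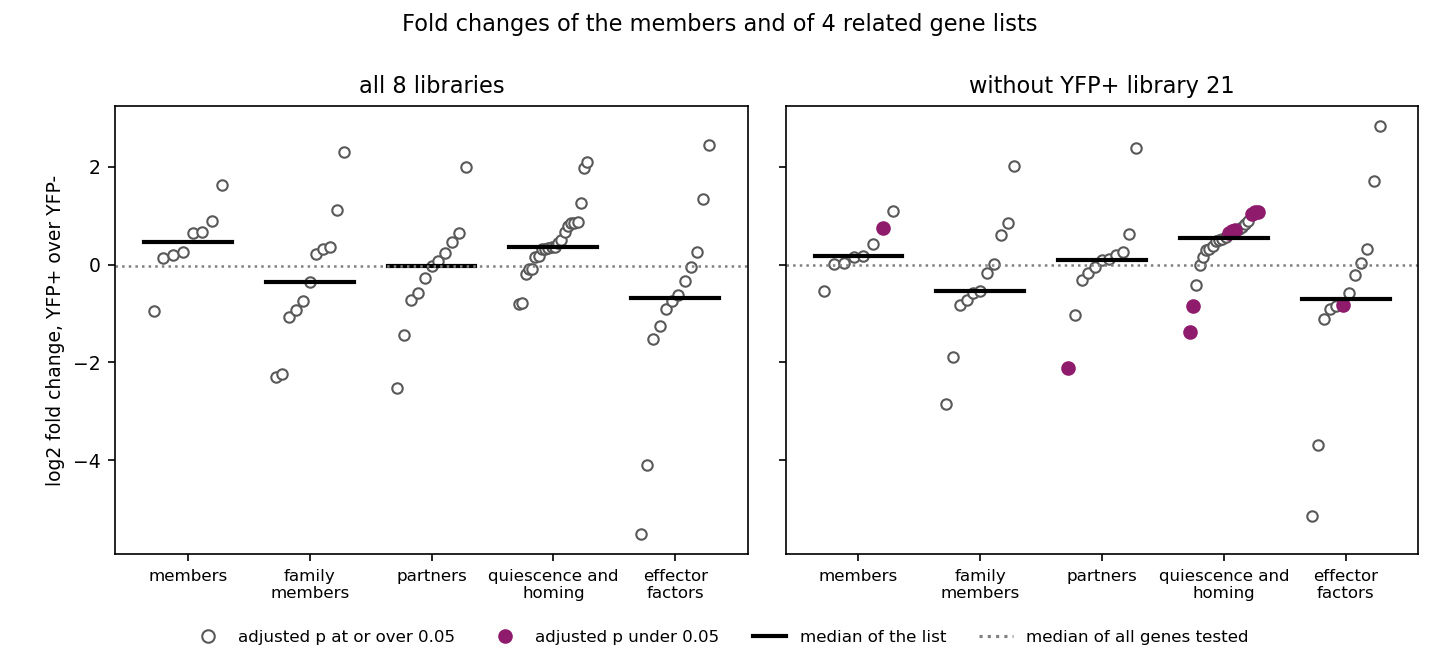
Log2 fold change of YFP+ over YFP- (vertical axis) for each tested gene of the 8 factors and of 4 related lists, over all 8 libraries (left) and without YFP+ library 21 (right), with filled points for genes called at an adjusted p under 0.05, a black line for the median of the list and a dotted line for the median of all genes tested. No point is filled on the left, and on the right Lef1, Mafg, Batf and 8 quiescence and homing genes are.

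Genes of other cell types were also counted. The summed level of 12 B cell genes was 1273, 770, 2949 and 205 CPM in YFP+ libraries 21, 46, 48 and 53, and 124 to 161 CPM in YFP- libraries, with Ms4a1 at 0 in all 8. The sum of 12 myeloid genes was 181 to 860 CPM in YFP+ libraries and 75.9 to 118 CPM in YFP- libraries. The sum of 6 genes of red cell precursors was 292 to 5063 CPM in YFP+ libraries, with Alas2 at 0 in all 8, and 92.2 to 357 CPM in YFP- libraries. Plasma cell genes summed to 90.9 to 893 CPM in YFP+ libraries and 207 to 234 CPM in YFP- libraries, and CD8 and NK cell genes to 71.5 to 172 CPM in YFP+ libraries and 47.7 to 66.4 CPM in YFP- libraries. Stromal genes summed to 272 to 351 CPM in YFP+ libraries and 295 to 330 CPM in YFP- libraries. Pecam1 alone was at 245 to 347 CPM in YFP+ libraries and 292 to 329 CPM in YFP- libraries. All stromal genes but Pecam1 and Cdh5 were highest in YFP+ library 48, where Cxcl12 was at 65.4 CPM. In the plasma cell list, Xbp1 was at 90.9 to 325 CPM in YFP+ libraries and 191 to 216 CPM in YFP- libraries. Jchain was at 0, 70.9, 419 and 109 CPM in YFP+ libraries and at 1.22 to 15.8 CPM in YFP- libraries. YFP+ library 48 was the highest in each of these lists. The 12 genes of T and Treg cell identity summed to 7672 to 11130 CPM in YFP+ libraries and 7986 to 8801 CPM in YFP- libraries. Bach2, Foxo1, Foxp1 and Id3 are also expressed by B cells. Within the YFP+ fraction, library 48 with the highest B cell sum held the highest Myb value and the lowest Lef1, Satb1 and Foxo1 values. Library 21 with the next highest sum held the highest Satb1, Bach2, Foxo1 and Foxp1 values. Library 53 with the lowest sum held the highest Id3 value and the lowest Bach2, Foxp1 and Myb values. Without YFP+ library 48 the log2 fold change was 0.77 for Lef1 and 1.87 for Satb1 (edgeR adjusted p = 0.148 and 0.0885). Of 7 thymocyte genes, Rag1, Rag2 and Ptcra were at 0 in all 8 libraries, and the list summed to 123 to 148 CPM in YFP+ libraries and 105 to 129 CPM in YFP- libraries. No exon base of Ms4a1, Alas2, Rag1, Rag2 or Ptcra lies outside the spans of other annotated genes, as for Foxp3 and Tcf7. Their counts of 0 were therefore not read as absence of these transcripts. The part of RNA from other cell types in these results was not tested.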

How the data were processed

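RNA from 8 sorted CD4+ CD25+ fractions was sequenced after a low-input library preparation. The authors deposited 1 table of whole-number counts per gene for all libraries. Per the submitters' processing notes, Trim Galore, STAR and mm10 were used. The counting tool, annotation and strand setting were not given in the sources used here. Groups were taken from the sample titles. Positions and exon overlaps came from GENCODE M21 (GRCm38), to which 99.3% of the gene IDs matched, and promoters from RefSeq GRCm38.p6. Counts were filtered with filterByExpr (minimum count 10, minimum total 15), scaled by TMM and fitted with edgeR 4.0.16 in R 4.3.3 by condition alone, and adjusted p-values run over all genes tested. The 95% intervals come from the standard error with 6 residual degrees of freedom. Exact permutation tests used log2(CPM + 1), with a pseudocount of 1. Alternatives were other scaling factors, no filter or 5 CPM in 4 libraries, robust dispersions, DESeq2 1.42.0, a block on the library number, and fits without each library and without YFP+ libraries 21 and 48. The members and lists were chosen with earlier results of these data known. All 8 factors are named; from each related list, the genes called over all 8 libraries or without YFP+ library 21 are named, or else those with the extreme fold changes, and for each factor its 2 nearest genes. One gene called in the quiescence and homing list is not reported here by name. Depth limits precision for low counts, and limits from counts cover counting error only.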

Additional observations from a re-analysis of the deposited data

Results flagged for a closer look

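Myb in YFP+ library 53 stood apart from the other YFP+ libraries. At 0.917 CPM it lay below 8.79, 9.24 and 12.2 CPM, and its gap to the nearest of them on the log2(CPM + 1) scale was 0.847 of the whole range of the fraction, above Dixon's 95% critical value for 4 libraries. It was 1 of 16 sets of 4 libraries looked at, and chance passes that value in about 5% of sets. Myb was also lowest in YFP- library 53, at 1.74 CPM.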

How the results depend on the processing

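Over all genes, 131 were called with all 8 libraries. The count was 10 with no filter on low counts, 9 with the stricter filter, 1310 with DESeq2, 0 with a block on the library number (1440 at an unadjusted p under 0.05) and 940 without YFP+ libraries 21 and 48. Leaving out 1 library gave 0 to 1052 calls, the highest without YFP+ library 21, then 236 without YFP+ library 48, and 0 without any of the others (1130 to 2326 at an unadjusted p under 0.05). The cause was not tested. Of the 8 factors, 0 were called with all libraries, 1 with DESeq2 (Satb1), 1 without YFP+ libraries 21 and 48 (Lef1) and 0 to 1 when 1 library was left out. YFP+ libraries 21 and 48 held the lowest YFP+ values of Lef1. Lef1 kept its sign in all 16 alternatives (log2 fold change 0.52 to 0.91, adjusted p = 0.0277 to 0.581) and so did Satb1 (1.09 to 1.87, adjusted p = 0.0279 to 0.487). Myb turned to -0.060 with the block, -0.55 without YFP+ libraries 21 and 48, -0.17 without YFP+ library 48 and -0.19 without YFP- library 53, and reached 0.53 without YFP- library 21. Equal library numbers were not taken to pair the fractions. The correlations of same-numbered deviations were 0.049, 0.068, 0.14 and 0.095, and those of unlike numbers ran from -0.12 to 0.068. YFP+ libraries 46, 48 and 53 correlated most with their own number. YFP+ library 21 correlated more with YFP- library 46, at 0.068, than with its own number. These small values do not settle whether the numbers pair the fractions. The block changed no call on the 8 factors, with a smallest adjusted p of 0.36. Depth limits the low counts of Tcf7 and Myb.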
